A study of Homo sapiens with 4 samples.

Results

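PDP1, TMEM67 and MIR378D2 are neighbouring genes on the long arm of chromosome 8, and in HCT116 cells they share a dense cluster of H3K27ac peaks. HCT116 is an established human colorectal carcinoma line. Chromatin immunoprecipitation sequencing (ChIP-seq) was performed with antibodies against H3K27ac and HSF1 in HCT116 cells grown in McCoy's 5A medium and fixed with formalin untreated, so no heat shock or drug was applied. The 4 libraries formed 4 groups of 1, an H3K27ac immunoprecipitate (IP) and its own input, and an HSF1 IP and its own input, and each IP entered as a list of peaks. There were no replicates, so each value below describes a single library against its input, without replicate error and without a test. The members were selected by gene symbol, as all peaks assigned to PDP1, TMEM67 or MIR378D2, and these genes had been picked from earlier results of this H3K27ac list. Their H3K27ac values are therefore given as a description. They numbered 34 of 15789 peaks in the H3K27ac list and 1 of 13127 in the HSF1 list.

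PDP1 encodes a mitochondrial phosphatase that dephosphorylates and so activates the pyruvate dehydrogenase complex, which feeds pyruvate into the citric acid cycle. It opposes the pyruvate dehydrogenase kinases. TMEM67 encodes meckelin, a membrane protein of the transition zone at the base of the primary cilium, which is mutated in Meckel and Joubert syndromes. MIR378D2 encodes a microRNA precursor of the miR-378 family. H3K27ac, acetylation of lysine 27 of histone H3, is placed by the acetyltransferases p300 and CBP and marks active promoters and enhancers, and long clusters of it are used to define super enhancers. HSF1 is a stress-activated transcription factor that induces chaperone genes. The study asked which loci held super enhancers and whether HSF1 was related to them.

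The 3 genes lie close together on hg19. TMEM67 runs on the forward strand from 94767071 to 94831466, and PDP1 runs on the same strand from 94929150 to 94938296. MIR378D2 lies on the reverse strand at 94928249 to 94928347, so its start is 803 bp before that of PDP1. Most of the acetylation lay between the end of TMEM67 and the start of PDP1, with a weaker part beyond PDP1. Joining H3K27ac peaks no more than 10 kb apart placed 29 of the 34 members in 1 region of 159 kb (chromosome 8, 94827292 to 94986667), and no peak of another gene was inside it. The other 5 were 3 peaks at the start of TMEM67, separated from the region by 58.3 kb without a peak, and 2 beyond its far end. The nearest of the latter began 11.0 kb past the end and so lay just outside the joining distance. The cluster is thus made up of acetylated stretches, 28 of the 29 outside the promoter class, and whether any of them acts as an enhancer was not tested.

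Acetylation covered 122.5 kb of the region, or 76.9% of its length. The 28 gaps between its peaks had a median of 354 bp, and 13 of them were under 300 bp. The smallest measured 8 bp and the largest 7.26 kb. The region held 3318 of the 485046 tags inside H3K27ac peaks (0.684%, 95% Clopper-Pearson interval 0.661 to 0.708), in 0.543% of the covered bases and 0.184% of the peaks. A tag is a sequenced read counted inside a peak, and this interval, like those below, covers counting error only. How deeply each library was sequenced is not stated in the labels or methods. Of the peaks, 17 lay before the PDP1 start, with 90.4 kb and 2514 tags (75.8%), and 12 after it, with 32.1 kb and 804 tags.

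**Figure D1:**
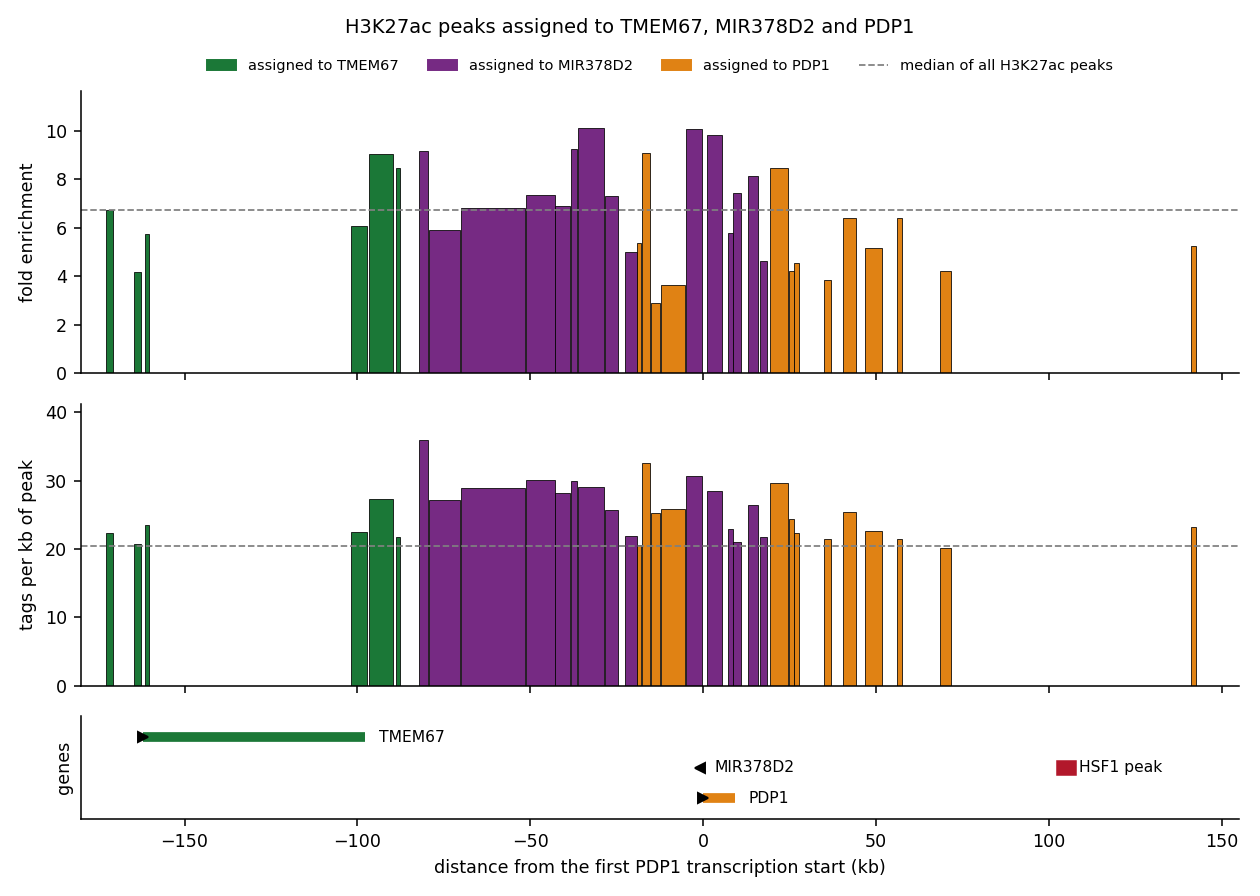
Each bar is an H3K27ac peak drawn to its width at its distance (kb) from the first PDP1 transcription start, with the height giving fold enrichment (top) or tags per kb (middle), coloured by assigned gene. The lower panel shows the 3 genes with triangles at their starts, and the HSF1 peak. From 82.3 kb before the PDP1 start up to that start most bars nearly touch, while many of those beyond it are farther apart. The peaks of 2.88-fold and 3.64-fold next to PDP1 have 25.3 and 25.9 tags per kb against 32.5 and 30.7 in the peaks beside them.

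The most continuous stretch was assigned to MIR378D2, although it lay 24.5 to 82.3 kb before the PDP1 start. With gaps of at most 1 kb allowed, a choice made after seeing the data, 8 peaks formed a run of 57.8 kb (94846871 to 94904650) of which 97.7% was covered. It held 1632 tags. Among all runs built this way in the H3K27ac list it was the longest and the highest by width times fold enrichment. The next longest, at SYTL3 and SMURF2, measured 42.0 and 41.4 kb, and the CCAT1 run 31.8 kb. Of the 7 gaps within the MIR378D2 run 6 were under 250 bp and the largest was 293 bp, so its division into peaks rests on short breaks set by the peak caller.

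Within that run lay the widest of all 15789 H3K27ac peaks, which was also the one with the most tags. It spanned 18476 bp (94859070 to 94877545) and held 535 tags (95% Poisson interval 491 to 582), against 15354 bp and 402 tags for the next in either ranking. Its fold enrichment of 6.80, the caller's ratio of IP over local background at the peak, was close to the list median of 6.73. Its score, the caller's 10 times the negative log10 of the p-value, was 115.47. The adjoining peak, 8503 bp wide (94877778 to 94886280) with 256 tags, reached a score of 545.47 at 7.34-fold, the 10th highest of the list. Among the 117 H3K27ac peaks of 5 kb or more the median score was 323, and the widest peak had the 14th lowest. The score thus did not follow the number of tags among these neighbours.

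The remaining wide peaks flanked it or lay nearer to the genes. The third in number of tags in the cluster was the 9060 bp peak at 94849717 to 94858776, with 246 tags (216 to 279) at 5.92-fold. The highest fold enrichment in the cluster was 10.1, in the 7655 bp peak at 94892871 to 94900525 with 222 tags (194 to 253). On the TMEM67 side the outermost peak (94827292 to 94831930) held 104 tags at 6.05-fold, above the region's median of 90, and on the far side of PDP1 the outermost (94985220 to 94986667) held 31 tags at 6.41-fold.

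At PDP1 itself, H3K27ac stood on both sides of the start and not over it. The peak before it (94924096 to 94928850) held 146 tags (123 to 172) at 10.06-fold and ended 300 bp before the first PDP1 start. The peak after it (94930137 to 94934566) held 126 tags (105 to 150) at 9.83-fold. The gap between them measured 1286 bp and contained both annotated starts of PDP1, at 94929150 and 94929174. The counting intervals of these 2 peaks overlap. At TMEM67 the same arrangement was seen at lower levels, with 45 tags (32.8 to 60.2, 4.17-fold) before the starts and 33 tags (22.7 to 46.3, 5.73-fold) after them, across a gap of 974 bp. The start of MIR378D2 fell inside the 10.06-fold peak. Over the list, 25.1% of the starts with a promoter-class peak lay inside an H3K27ac peak.

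The deposited annotation assigned the peaks over PDP1 to another gene, while the 2 over TMEM67 and the 1 over MIR378D2 were assigned to the gene they overlap. Such an assignment rests on distance alone and measures no target. Of the members, 15 were assigned to MIR378D2, 13 to PDP1 and 6 to TMEM67, and 1 of the TMEM67 peaks was also assigned to RBM12B. PDP1 received no promoter-class peak and no intronic peak. All 3 peaks that overlap the body of PDP1 were listed instead as promoter-distal upstream peaks of MIR378D2, on the opposite strand, and the 10.06-fold peak that ends next to the PDP1 start was listed as the promoter peak of MIR378D2. A single peak overlaps the microRNA gene. When each member was given to the nearest of the member starts by its midpoint, also chosen after seeing the data, 14 fell to MIR378D2, 14 to PDP1 and 6 to TMEM67. The starts of PDP1 and MIR378D2 are so close that this distance hardly separates them.

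By number of assigned H3K27ac peaks, MIR378D2 ranked 61st, PDP1 88th and TMEM67 394th, ties sharing a rank, among 7345 genes with a peak, where the median was 1 and the highest 55, at PCDH7. The TMEM67 peaks fell into a group at its start and a group at its end, and the latter held the peaks with the most and the fewest tags. The 3 peaks near the start held 49, 45 and 33 tags, and none was wider than 2188 bp. At the other end of the gene, 62.5 to 73.8 kb from the start, were peaks of 104, 183 and 31 tags. The highest of these, at 94832604 to 94839319, spanned 6716 bp at 9.03-fold and began past the last annotated base of TMEM67. Peaks assigned to PDP1 were smaller than those assigned to MIR378D2, with a median of 64 against 103 tags and 2245 against 4011 bp. This compares assigned groups, in which the 3 peaks over PDP1 and the peak next to its start count for MIR378D2. The strongest PDP1 peak past the gene (94948562 to 94953820) was 5259 bp wide with 156 tags (132 to 182) at 8.46-fold. PDP1 peaks reached 142 kb beyond the start, where the last (95070167 to 95071806) held 38 tags at 5.23-fold.

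As a set, the members were wide and tag-rich but not above the whole list in fold enrichment. Their median width was 2740 bp against 1198 bp over the list, their median number of tags 73.5 against 24, and their median fold enrichment 6.41 against 6.73. Of the 34, 33 exceeded the list median in width, 33 in tags and 33 in tags per kb, but only 15 in fold enrichment. Peaks of 5 kb or more made up 0.741% of the list and 7 of the 34 members. A score of 100 or more was reached by 17.0% of the list and by 18 members, and 25 tags per kb or more by 6.85% of the list and 17 members. A fold enrichment of 10 or more was reached by 2.35% of the list and 2 members, while 7.21% of the list and 8 members were under 5. These shares are of the same peaks that led to the choice of the genes.

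**Figure D2:**
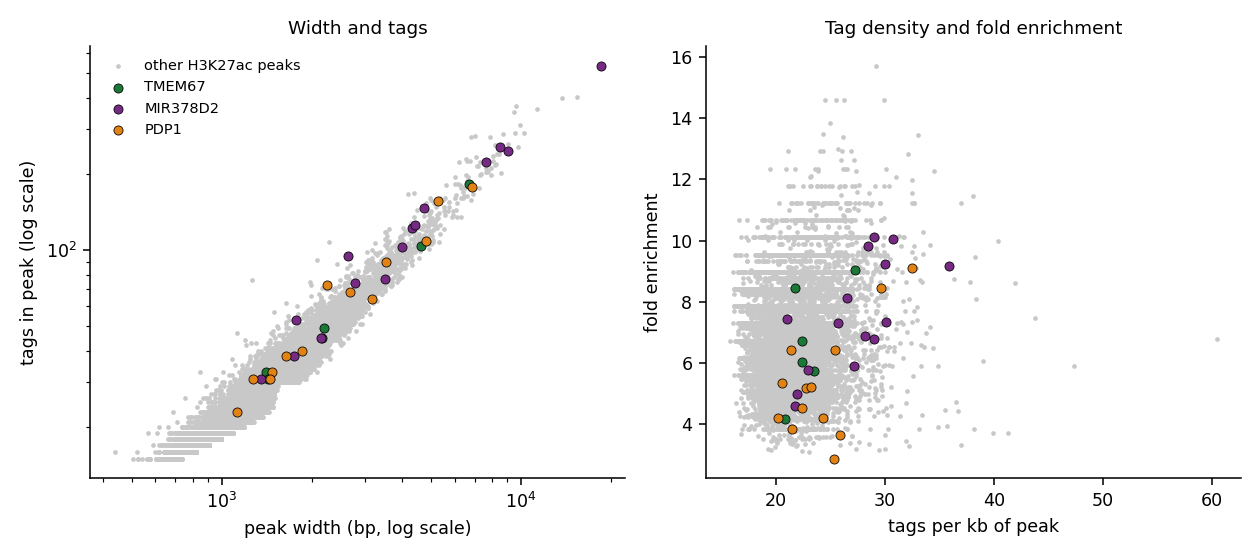
Left, tags against width of each H3K27ac peak on nuclear chromosomes (both axes logarithmic). Right, fold enrichment against tags per kb. Grey points are all other peaks and coloured points the members by assigned gene. The MIR378D2 peak of 18476 bp and 535 tags is at the upper end of the left plot, and the PDP1 peak of 2.88-fold is the lowest point of the right plot.

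Fold enrichment and tag density went apart next to PDP1. The lowest fold enrichment of the whole H3K27ac list, 2.88, belonged to the peak at 94914083 to 94916769, which held 68 tags in 2687 bp, or 25.3 tags per kb. The adjoining peak (94917078 to 94923914) was 3.64-fold with 177 tags, or 25.9 per kb. These densities exceeded the list median of 20.5 tags per kb and stood at the 94.0th and 95.3rd percentile. On one side of the pair lay a 9.09-fold peak (94911438 to 94913682, 73 tags, 32.5 per kb) and on the other the 10.06-fold peak at the PDP1 start (30.7 per kb). From the 2.88-fold peak to its neighbours the ratio thus changed more than the tags per kb did. In the list, 177 peaks (1.12%) were under 4-fold, with a median of 21.9 tags per kb, and 3 of them were members, all assigned to PDP1. Since the ratio is taken over a local background that was not part of the values analysed here, its share in this difference was not tested.

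The false discovery rate deposited with the peaks rose with the score rather than falling. It ran from 9.23% to 100% over the members. All 10 members with a rate of 100%, against 1.63% of the list, had a score of 232.38 or more, and no other member scored above 198.24. The rate was not used to choose among peaks.

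Chromosome 8 as a whole had more tags per peak than most chromosomes, which bears on all these levels. Its median of 33 tags was the second highest of the 23 nuclear chromosomes with a peak, after chromosome 17 with 36, while the peaks outside chromosome 8 had a median of 23. Widths moved with it, with medians of 1536 and 1175 bp. Within 5 Mb of the cluster but outside the region, 126 peaks had a median of 33 tags, 1612 bp and 21.4 tags per kb, against 90 tags, 3514 bp and 25.7 per kb in the region. Fold enrichment differed less, with medians of 6.17 on chromosome 8 outside the region, 5.97 within 5 Mb and 6.80 in the region. The region was thus above its chromosome and just above the list median of 6.73. The median of the 34 members, 6.41, was below that of the list. None of those 126 was 5 kb wide or more, against 7 of 29 in the region. The part of DNA copy number in the chromosome 8 levels was not tested. Of 12 colon epithelial marker genes, 7 had an H3K27ac peak (KRT8, KRT18, KRT19, KRT20, ELF3, CDH1 and CDH17), against 24.6% of all genes. CDX1, CDX2, EPCAM, HNF4A and VIL1 had none. A promoter-class peak was assigned to 3 of the 12 (KRT8, KRT18 and CDH17), against 9.98% of all genes. Of 10 genes of other lineages only PTPRC had an H3K27ac peak, an intronic peak.

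With width times fold enrichment added up over its peaks, the region stood second of 10295, and 279 of these (2.71%) lay above the tangent point of the ranked curve. The most similar loci by rank were NSMCE2 (rank 1), VTI1A (rank 3) and CCAT1 (rank 4), and by number of joined peaks KRR1, MTHFD1L and PCDH7. NSMCE2 had 1.19 times the summed value, from 42 peaks over 195 kb. VTI1A had 0.842 times and CCAT1 0.772 times. The region differed from NSMCE2 in having fewer but wider peaks, with a median width of 3514 against 2275 bp and a median of 90 against 53 tags. VTI1A on chromosome 10 had a higher median fold enrichment, 9.58 against 6.80. Coverage was alike among the leading regions, at 76.9% here, 78.2% in VTI1A, 71.2% in CCAT1 and 69.4% in NSMCE2. KRR1 matched it with 29 peaks but had a median width of 1718 bp, 43.6% coverage and 1117 tags against 3318. With 1 library these are differences of values without a test.

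**Figure D3:**
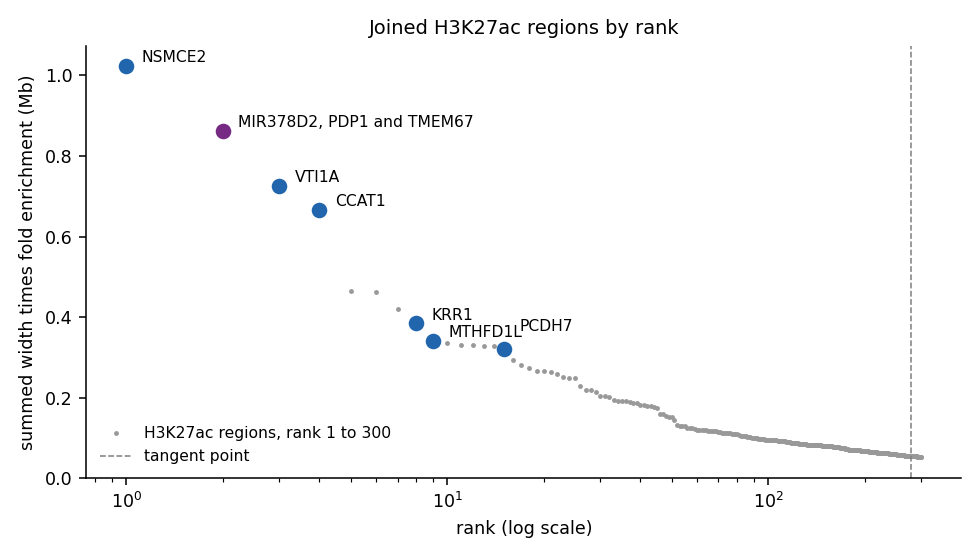
Summed width times fold enrichment (drawn in Mb) against rank (logarithmic axis) for the 300 highest joined H3K27ac regions, with the region of MIR378D2, PDP1 and TMEM67 in purple and the most similar regions in blue. It is second of 10295, between NSMCE2 and VTI1A, and KRR1 with the same number of peaks is at rank 8.

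The HSF1 list was then examined at the same genes. HSF1 peaks were not used to choose the genes. A single HSF1 peak was assigned to them, an intergenic peak of PDP1 at 95033585 to 95034887, 105 kb past the start. It held 22 tags (95% Poisson interval 13.8 to 33.3) at 3.16-fold, with a score of 34.13, which corresponds to a p-value of 0.000386 from the caller. By fold enrichment it stood at the 1.64th percentile of the HSF1 list and by score at the 39.7th. This score was below 50, the minimum score in the H3K27ac list. It lay outside the region and 32.7 kb from the nearest H3K27ac peak, between the last 2 PDP1 peaks. TMEM67 and MIR378D2 were assigned none, and 13.6% of all genes were assigned an HSF1 peak.

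None of the 34 H3K27ac members shared a base with an HSF1 peak, and over the list 0.260% did. By 3 counts this allows a share of up to 8.82%, and by the Clopper-Pearson interval 10.3%, but adjoining peaks of 1 region are not independent, so neither is a firm limit. With so rare an overlap, 0 of 34 is also what the list share gives. Within 5 kb there was none either, against 0.931% over the list. The distance from a member to the nearest HSF1 peak ran from 32.7 to 275 kb with a median of 118 kb. The region lay in a stretch of 562 kb without an HSF1 peak, from LINC00535 to PDP1. It was the 59th longest of 1439 such gaps on chromosome 8, where the median was 28.6 kb. A gap that holds a region of 159 kb is at least that long, so a high rank is partly given. The absence was not particular to this region. The similar regions at NSMCE2, VTI1A, CCAT1, KRR1, MTHFD1L and PCDH7 also held 0 HSF1 peaks each.

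**Figure D4:**
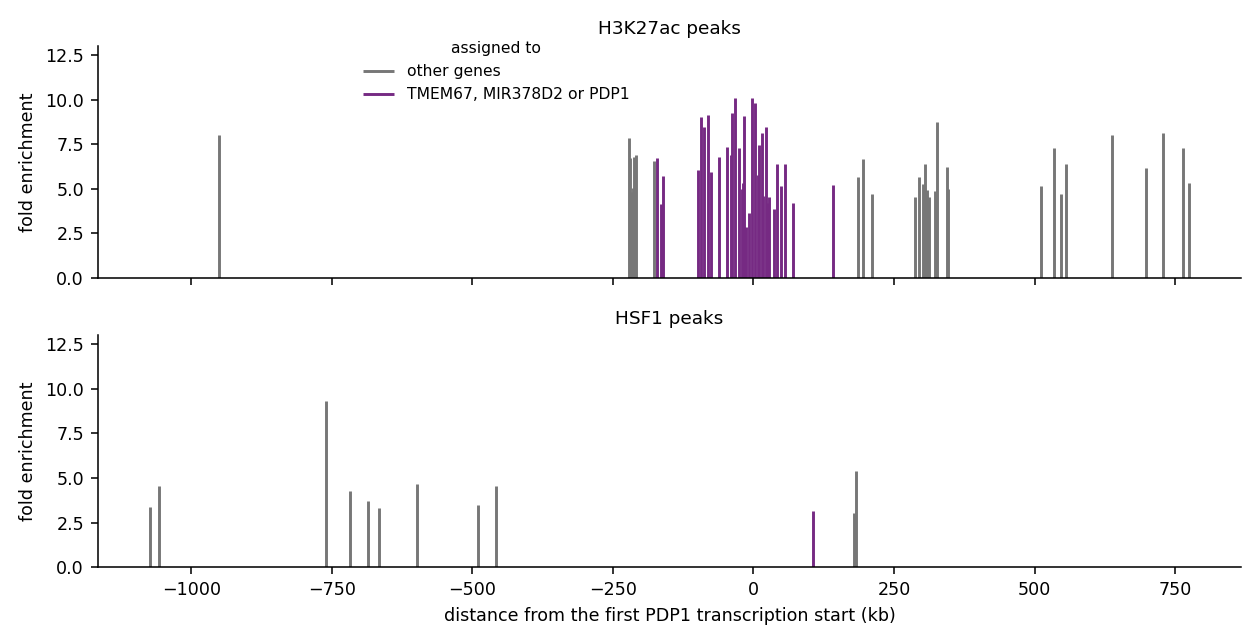
Fold enrichment of each H3K27ac peak (top) and HSF1 peak (bottom) within 1 Mb of the region against distance (kb) from the first PDP1 transcription start. Purple lines are peaks assigned to TMEM67, MIR378D2 or PDP1 and grey lines those of other genes. Most HSF1 peaks lie to the far left, farther out than the H3K27ac peaks of FAM92A, LINC00535, RBM12B and TMEM67. The single purple HSF1 line is beyond the acetylated cluster.

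Around the region most HSF1 peaks lay before it, and 3 lay beyond it among H3K27ac peaks of PDP1 and CDH17. Those before it were farther from the region than the H3K27ac peaks of FAM92A, LINC00535, RBM12B and TMEM67. Within 1 Mb there were 64 H3K27ac peaks, of which 29 formed the region, and 12 HSF1 peaks. HSF1 density was 5.56 peaks per Mb (95% Poisson interval 2.87 to 9.71), against 9.88 on chromosome 8 and 4.43 over all nuclear chromosomes. Within 2 Mb it was 14.7 (11.2 to 18.8), above the chromosome 8 value, as 26 peaks of RUNX1T1 enter. Of the 12 HSF1 peaks, 9 lay in the 879 kb that begin 1 Mb before the region and end at the first peak of FAM92A. The H3K27ac list had a single peak there, at the promoter of TRIQK (7.99-fold, 20 tags). Because the stretch was drawn to end at an H3K27ac peak, the low number of such peaks partly follows from its boundary. The strongest HSF1 peak there was intronic in C8orf87 (94168537 to 94170262, 37 tags, 9.30-fold, score 101.06), 657 kb from the region. It ranked second of the HSF1 list by fold enrichment. The 3 on the other side were the PDP1 peak, between 2 H3K27ac peaks of PDP1, and 2 of CDH17. The other 11 of the 12 had scores between 30.72 and 41.06.

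Genes next to the cluster carried fewer H3K27ac peaks than MIR378D2 or PDP1, though the 9 of CDH17 exceeded the 6 of TMEM67. Their largest peak within 1 Mb, of 97 tags, was below the largest peak of each member. CDH17, which encodes an intestinal cadherin, had 9 peaks between 128 and 256 kb past the end of the region, with 23 to 65 tags and at most 6.67-fold, and 2 HSF1 peaks of 18 and 26 tags. GEM, which encodes a small GTP-binding protein, had 4 peaks of 41 to 63 tags, including 2 at its promoter and 1 of 8.72-fold. RBM12B and RBM12B-AS1 shared a promoter peak of 97 tags at 6.57-fold. Its tags exceeded those of either TMEM67 promoter peak. The m6A writer component VIRMA had a promoter peak of 54 tags at 7.99-fold. Of 22 genes listed around the cluster, 16 had an H3K27ac peak, against 24.6% of all RefSeq genes, and 5 an HSF1 peak, against 13.6%. This list contains the 3 members. The 6 without an H3K27ac peak were CCNE2, DPY19L4, INTS8, TP53INP1, RUNX1T1 and C8orf87, of which RUNX1T1 had 34 HSF1 peaks and C8orf87 5.

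Of 15 genes of pyruvate entry into mitochondria, 7 had an H3K27ac peak, against 24.6% of all genes. PDP1, which was chosen for its peaks, is 1 of the 7 and had the most with 13. PDHX, a structural subunit of the pyruvate dehydrogenase complex, had 5 peaks (97 tags in all), and DLAT, its acetyltransferase subunit, had 3 (74 tags). DLD, the dihydrolipoamide dehydrogenase subunit, the pyruvate carrier subunit MPC2 and the second phosphatase gene PDP2 had 1 each, with 20, 27 and 35 tags. Among the kinases that oppose PDP1, PDK4 had 2 peaks (35 tags), the higher of them 47.4 kb before its start, and PDK1, PDK2 and PDK3 had none. PDHA1, PDHA2, PDHB, PDPR and MPC1 also had none. A promoter-class peak was assigned to DLAT, PDHX and MPC2, 3 of 15, against 9.98% of all genes. PDP1 is not among them because the 10.06-fold peak ending 300 bp before its start was listed under MIR378D2. PDP1 was the only one of the 15 with an HSF1 peak, against 13.6% of all genes. That peak was the 3.16-fold one 105 kb past its start. PDP1 was thus also the only one with both, against 3.48% of all genes.

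Of 18 genes of the ciliary transition zone, 8 had an H3K27ac peak and 6 a promoter-class one, against 24.6% and 9.98% of all genes. TMEM17, another membrane protein of the transition zone, had 9 peaks with 418 tags in all, close to the 445 of the 6 TMEM67 peaks. Its highest peak, 8.17-fold with 84 tags, was 74.7 kb before its start. MKS1 and CEP290 had 2 each (60 and 40 tags), and AHI1, TCTN3 and B9D2 1 each (49, 18 and 15 tags). Among 11 miR-378 genes MIR378D2 was the only one with an H3K27ac peak, against 24.6% of all genes. MIR378G was the only one with an HSF1 peak (4.87-fold, 14 tags, 13.1 kb before its start), against 13.6%. These counts include PDP1, TMEM67 and MIR378D2 themselves.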

How the data were processed

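The labels name FastQC and Bowtie2 2.2.7 and the hg19 build, and peaks in each IP were called with MACS against the matching input according to the study's methods. The deposited lists give a row per peak and RefSeq transcript (39350 for H3K27ac, 24461 for HSF1). Repeated rows of a peak were merged. The authors' tag counts are raw and whole. The deposited score is the caller's 10 times the negative log10 of the p-value, with minima of 50 (H3K27ac) and 30 (HSF1). The deposited fold enrichment is a ratio to the caller's local background, and the false discovery rate is deposited as a percent. Promoter-class peaks had midpoints up to 2 kb from a start, and upstream-class peaks up to 20 kb before one.

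Peaks within 10 kb were joined and ranked by summed width times fold enrichment. The tangent point is where the scaled ranked curve has a slope of 1. Counts have exact Poisson and shares exact Clopper-Pearson 95% intervals, and the limit of a count of 0 is 3 counts. Distances run from peak midpoints, gaps between peak edges, and overlap needed 1 bp. Densities over chromosomes took the outermost peaks as ends. Symbols came from a RefSeq table (GRCh38.p14) used for names only, in which 7346 of 7390 H3K27ac and 4063 of 4101 HSF1 symbols were found. The background was its 29853 genes with an NM or NR transcript, Y excepted, and the FAM92A, LINC00535 and C8orf87 of the lists are CIBAR1, CIBAR1-DT and LINC02906 there. Members and gene lists were chosen with earlier results of these data known. Named were the members, list genes with a peak, the extreme and outermost peaks of the cluster, and the regions nearest in rank or number of peaks. Further genes were named after their values were seen. Alternatives covered thresholds, joining distances, ranking measures, classes and windows. Joining and intervals were tested on simulated data. Calculations ran in Python 3.11.15 (scipy 1.17.1, pandas 2.3.3, numpy 2.4.6), plots in matplotlib 3.10.9. The inputs entered only through the deposited values, and no sequence was analysed here. The values of 1 listed gene are not reported here.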

Additional observations from a re-analysis of the deposited data

How the results depend on the processing

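The region ranked 2nd with peaks within 5 kb joined, by tags, by widths and without promoter-class peaks, 3rd with peaks within 20 kb joined or a score of 100 or more, and 1st with peaks within 1 kb joined, where it is the 57.8 kb run. The ranked stretch also changed at 5 kb (22 peaks, 110 kb, no TMEM67 peak) and at 20 kb (30 peaks, 174 kb). At a score of 100 or more it had 12 peaks over 86.4 kb and ended before the PDP1 start. At a score of 100 or more, 18 of the 34 H3K27ac members were left, with a median of 4535 bp, 115.5 tags and 7.73-fold. The peaks that dropped out were mostly narrower than the members' median, but included the 6837 bp peak at 3.64-fold. For the HSF1 peaks assigned to the members the number fell from 1 to 0 at a score of 50 or more, and 0 lay inside the joined region. HSF1 density was 14.7 per Mb within 2 Mb, where 26 peaks of RUNX1T1 enter, and 0.463 per Mb within 1 Mb at a score of 50 or more. H3K27ac density was 29.6 per Mb within 1 Mb, 50.03 within 500 kb and 17.6 within 2 Mb, and without the peaks of the region it was 17.5, 29 and 11. Of the pyruvate genes, 3 had a promoter-class peak and 2 a peak with a score of 100 or more, and of the transition zone genes 3 had a peak with such a score. In the other alternatives counts stayed within 1.5 times. In the joined region alone the medians were 3514 bp, 90 tags and 6.80-fold, against 2740 bp, 73.5 tags and 6.41-fold over the members. HSF1 density within 500 kb was 5.18 per Mb, inside the interval of the 1 Mb value (2.87 to 9.71). No paired analysis was possible because each group is 1 library. Depth limits the smaller peaks most, where 23 tags have an interval of 14.6 to 34.5.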
